A study of Mus musculus with 6 samples.

Results

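A set of 10 genes of the Notch pathway was followed in embryonic mouse kidneys that had lost the transcription factor Sall1. They were the receptors Notch1 and Notch2, the ligands Jag1 and Dll1, the receptor-modifying enzyme Lfng, the nuclear factor Rbpj and the targets Hes1, Hes5, Hey1 and Heyl. Probes were assigned to these genes by the RefSeq accession on the array, which gave 15 probes for 10 of the 17305 genes named on the array. Each gene is given by its brightest probe, and the other 5 probes belonged to Notch2, Jag1, Lfng and Heyl. All 15 probes were well above background on all 6 arrays.

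Whole kidneys were taken at the embryonic stage E14.5 from a hybrid of the 129 and C57BL/6 strains, and each sample was hybridised to 1 one-colour Agilent array. In the Six2Cre line, floxed Sall1 was deleted by a Cre directed to nephron progenitors, with 2 knockout arrays (replicates 7 and 9) and 2 control arrays (replicates 5 and 2). In the Sall1CreER line the deletion was induced with tamoxifen at E12.5 and kidneys were taken 48 h later, with 1 knockout array (replicate 5, titled CreER/flox) and 1 control array (replicate 2, titled wt/flox). Since only the knockout title of this pair names CreER, carrying CreER and losing Sall1 cannot be told apart. The line of each sample was read from the style of its title together with the design text. A note shared by all samples mentions tamoxifen, and whether the Six2Cre animals received it is not settled by the labels. The labels do not state which part of Sall1 was floxed, whether the Six2Cre controls carried Cre, or whether arrays came from separate embryos, so p-values measure only the spread between these samples.

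Notch signalling passes between touching cells. A ligand on one cell, such as Jag1 or Dll1, binds a receptor on its neighbour, the receptor is cut, and its intracellular part enters the nucleus and joins Rbpj on DNA to switch on genes of the Hes and Hey families, which encode transcriptional repressors. In the developing mouse kidney the pathway is known for its role in the early nephron, where progenitors that have turned into an epithelium take on proximal identity, and Notch2 is the receptor whose loss is known to impair this step. Lfng adds sugar to Notch receptors and changes how they respond to each ligand.

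Promoter windows were read from RefSeq sequence (build GRCm38.p6), from 250 bases before to 50 after the start of transcription. Of the 10 genes 7 were matched, with 9 windows, and Hes1, Hey1 and Heyl were not matched. The windows shown are those with 2 copies of TGGGAA, the core of the motif bound by Rbpj, on either strand. Hes5 lies at chr4:154960673-154960972 (+), Lfng at chr5:140607091-140607390 (+) and Rbpj at chr5:53590096-53590395 (+). Capitals mark TGGGAA, or TTCCCA where the motif lies on the other strand.
Hes5: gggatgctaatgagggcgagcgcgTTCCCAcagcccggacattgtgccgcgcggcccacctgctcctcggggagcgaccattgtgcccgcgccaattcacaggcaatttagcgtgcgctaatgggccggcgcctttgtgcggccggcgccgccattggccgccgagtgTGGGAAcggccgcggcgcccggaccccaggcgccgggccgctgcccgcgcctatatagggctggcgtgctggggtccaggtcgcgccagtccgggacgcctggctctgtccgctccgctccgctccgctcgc
Lfng: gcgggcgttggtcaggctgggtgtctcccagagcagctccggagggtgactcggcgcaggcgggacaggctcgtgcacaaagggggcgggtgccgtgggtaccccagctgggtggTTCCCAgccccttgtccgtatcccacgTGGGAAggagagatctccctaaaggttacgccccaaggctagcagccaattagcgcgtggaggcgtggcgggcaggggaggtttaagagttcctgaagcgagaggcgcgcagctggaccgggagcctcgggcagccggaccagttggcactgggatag
Rbpj: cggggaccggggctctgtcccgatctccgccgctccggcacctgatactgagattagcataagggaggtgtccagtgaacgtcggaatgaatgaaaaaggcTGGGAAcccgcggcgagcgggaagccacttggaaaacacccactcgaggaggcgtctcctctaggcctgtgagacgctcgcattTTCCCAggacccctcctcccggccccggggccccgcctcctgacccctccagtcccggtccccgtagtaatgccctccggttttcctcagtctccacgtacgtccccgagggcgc

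In the Hes5 window the copies began at bases -226 and -82 from the start, and both were also matches to the longer GTGGGAA, which contains TGGGAA. The Lfng copies began at -135 and -108, and 1 of them matched GTGGGAA. The Rbpj copies began at -149 and -65 and neither matched the longer form. A second Rbpj window, which overlaps the first, held 1 copy, and the windows of Notch1, Notch2, Jag1 and Dll1 held none. Over all 32851 windows of the same length, 25.6% held TGGGAA and 3.8% held at least 2 copies, while 6.4% held GTGGGAA and 0.3% held at least 2 copies. A copy describes the letters in this window and says nothing of occupancy.

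A level is given as the log2 of a probe's processed signal over the 75th percentile of its array, so that 0 marks that percentile, and levels are compared only between arrays for the same probe. Between 79.9% and 82.9% of probes were well above background on the 4 Six2Cre arrays, 71.6% on the CreER knockout array and 82.2% on the CreER control array. The SD of the negative controls was 4.01 on the CreER knockout array and 1.47 to 1.61 on the other arrays. Slide 1 held Six2Cre knockout 7 and control 5, and slide 2 held the other 4 arrays, so each slide gave 1 Six2Cre difference of its own. Sall1 was at -2.64 and -1.99 in Six2Cre knockouts, against -1.37 and -0.76 in Six2Cre controls (difference -1.25, SE 0.38, limma adjusted p = 0.595), and at -4.05 in the CreER knockout against -1.27 in its control, 6.87-fold lower. Its level is only a partial check of the labels, since the position of the probe with respect to the deletion is not stated. The defining markers of kidney were present, with 16 of 16 nephron progenitor, 11 of 12 ureteric bud and 20 of 20 measured early nephron markers well above background on all 6 arrays (Ret was so on 5). Six2Cre control 2 stood apart from the rest in skeletal muscle genes: all 15 measured were at least 2-fold above their median over the arrays there, with a summed signal of 40.0 against 4.10 to 7.11 on the other arrays. Differences are therefore also given without this array. Leaving out 1 Six2Cre control sets knockouts of both slides against a control of 1 slide, so such values also carry any difference between slides.

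All 10 genes had a lower mean level in Six2Cre knockouts than in Six2Cre controls, and all 10 were lower in both slide pairs, a pattern met by 24.2% of the 26393 features tested. Both knockouts lay below both controls for 7 of the 10 (Notch1, Jag1, Dll1, Lfng, Hes5, Hey1 and Heyl), against 13.7% of the 15234 named genes tested. None of the 10 had both knockouts above both controls (19.6% of named genes), and the groups overlapped for Notch2, Hes1 and Rbpj. The median difference of the 10 was -0.77 on the log2 scale, against 0.03 over all features. Without control 2, 9 of the 10 were lower, with a median of -0.82, and without control 5, 8 were lower, with a median of -0.64. By limma with adjustment over all features, 0 of the 10 passed an adjusted p of 0.05, as did 0% of all features, where the lowest adjusted p was 0.0828. At an unadjusted limma p under 0.05, 5 of the 10 were lower (Jag1, Dll1, Lfng, Hes5 and Hey1), against 2.68% of all features. With slide as a block and a variance prior that follows intensity and resists outliers, the same 5 fell at an adjusted p of 0.05, against 1.27% of all features lower (1.25% were higher, and 0 of the 10). With the block but a plain prior 0 of 10 passed (0% of all features), and with normexp background correction and the block 3 fell (Dll1, Lfng and Hes5, against 0.754% of all features). Dll1, Lfng and Hes5 were also more than 2-fold lower in the mean, as were 3.13% of all features.

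**Figure D1:**
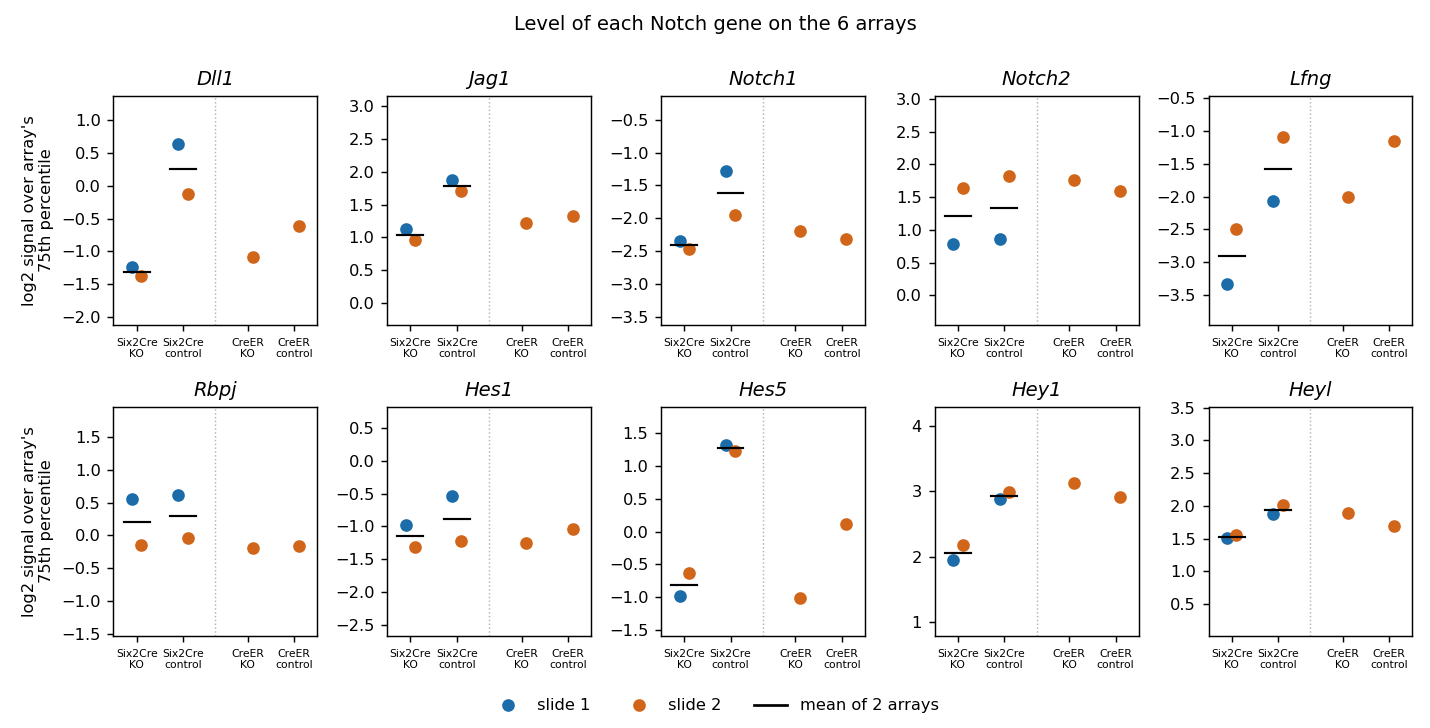
Levels of the 10 genes (log2 of signal over the array's 75th percentile) on each array, with Six2Cre knockouts left of Six2Cre controls and the CreER knockout left of its control, points marked by slide and each panel spanning the same range. Hes5 separates the Six2Cre groups most widely, at -0.99 and -0.63 in knockouts against 1.32 and 1.22 in controls, whereas Notch2 and Rbpj follow the slide.

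Hes5, a repressor of the Hes family that is a direct target of the cut Notch receptor, had the largest difference of the 10. Its level was -0.99 and -0.63 in Six2Cre knockouts, against 1.32 and 1.22 in Six2Cre controls. The groups were far apart and the controls lay within 0.10 of each other. The mean was -0.81 ± 0.25 in knockouts and 1.27 ± 0.07 in controls (SD, n = 2 each), 4.23-fold lower (difference -2.08, 95% interval -2.78 to -1.38, limma adjusted p = 0.142). In size this lay at percentile 98.8 of all features. The difference was -2.31 on slide 1 and -1.85 on slide 2. It was -2.13 without control 2 and -2.03 without control 5. With the slide block and the intensity-following prior the limma adjusted p was 0.00332.

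The ligand Dll1, made by differentiating cells of the renal vesicle, came next in size. Its level was -1.24 and -1.38 in Six2Cre knockouts, against 0.63 and -0.13 in Six2Cre controls. Both knockouts lay more than 1 log2 unit below both controls, and the controls were 0.76 apart. The Dll1 probe was spotted 10 times per array, with an SD of 0.05 to 0.08 between spots. This SD covers the spotting error on 1 array and not the spread between samples. The mean was -1.31 ± 0.10 in knockouts and 0.25 ± 0.54 in controls (SD, n = 2 each), 2.96-fold lower (difference -1.57, 95% interval -2.47 to -0.66, limma adjusted p = 0.370). The difference was -1.88 on slide 1 and -1.25 on slide 2. It was -1.94 without control 2 and -1.19 without control 5.

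Jag1, the other ligand, had levels of 1.12 and 0.95 in Six2Cre knockouts, against 1.87 and 1.71 in Six2Cre controls. The replicates of each group lay within 0.17 of each other and the groups did not overlap. The knockouts were 1.68-fold lower (difference -0.75, 95% interval -1.41 to -0.09, limma adjusted p = 0.681). Both slides gave -0.75. The difference was -0.83 without control 2 and -0.67 without control 5. Its dimmer probe gave a less even pair of values, at -1.26 on slide 1 and -0.48 on slide 2.

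The receptor Notch1 was at -2.34 and -2.48 in Six2Cre knockouts, against -1.28 and -1.95 in Six2Cre controls. Knockouts lay below both controls, but the controls were 0.67 apart, close to the difference between the group means (-0.79, 95% interval -1.65 to 0.06, limma adjusted p = 0.848). The difference was -1.06 on slide 1 and -0.53 on slide 2. It was -1.13 without control 2 and -0.46 without control 5, so that 1 control array moved it by more than 1.5 times.

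Notch2 was at 0.78 and 1.64 in Six2Cre knockouts, against 0.86 and 1.82 in Six2Cre controls. Here the groups overlapped, and the arrays of slide 1 were lower than those of slide 2 in both groups. The difference between means was -0.13 (95% interval -1.39 to 1.13, limma adjusted p = 1.00), with -0.08 on slide 1 and -0.18 on slide 2. This interval, from a fit without the slide, spans more than 2-fold either way. Over both lines, with line and slide as covariates, the 95% interval was -0.39 to 0.32. In the Six2Cre line with the slide as a block the SE was 0.18 in place of 0.48, and the limma adjusted p was 0.821. The 2 dimmer Notch2 probes gave -0.19 and -0.04. Without control 2 the difference was 0.35, since the remaining control was on slide 1.

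Lfng, the enzyme that modifies Notch receptors, was at -3.33 and -2.49 in Six2Cre knockouts, against -2.06 and -1.09 in Six2Cre controls. Each group held a lower array on slide 1 and a higher one on slide 2, with gaps of 0.84 in knockouts and 0.97 in controls. Within slides the differences were close, at -1.27 on slide 1 and -1.40 on slide 2. The mean was -2.91 ± 0.59 in knockouts and -1.58 ± 0.69 in controls (SD, n = 2 each), 2.52-fold lower (difference -1.33, 95% interval -2.59 to -0.07, limma adjusted p = 0.750). With the slide block the SE was 0.18 in place of 0.48, and the limma adjusted p was 0.141. The dimmer probe gave -1.36, nearly the value of the brighter one. Without control 2, the array that stood apart in muscle genes, the difference was -0.85, and the slide 1 pair, which does not hold that array, gave -1.27.

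Rbpj, the DNA-binding partner of the cut receptor, was at 0.56 and -0.15 in Six2Cre knockouts, against 0.62 and -0.03 in Six2Cre controls. The groups overlapped and the values followed the slide, opposite in direction to Notch2. The difference was -0.09 (95% interval -1.12 to 0.95, limma adjusted p = 1.00), with -0.06 on slide 1 and -0.12 on slide 2. Without control 2 it was -0.41 and without control 5 it was 0.24. With the slide as a block the SE was 0.18 in place of 0.40.

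Hes1, a Hes repressor that many signals besides Notch also control, was at -0.98 and -1.31 in Six2Cre knockouts, against -0.54 and -1.22 in Six2Cre controls. Knockout 7 lay above control 2, so the groups overlapped. The difference was -0.26 (95% interval -1.16 to 0.64, limma adjusted p = 1.00), with -0.43 on slide 1 and -0.09 on slide 2. Without control 2 it was -0.60 and without control 5 it was 0.08. Hes1 and Hes5 belong to the same family, but their difference from each other was not tested.

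Hey1, a repressor of the related Hey family, was at 1.94 and 2.17 in Six2Cre knockouts, against 2.87 and 2.98 in Six2Cre controls. The groups were well apart, with 0.23 between the knockouts and 0.11 between the controls. The knockouts were 1.83-fold lower (difference -0.87, 95% interval -1.53 to -0.21, limma adjusted p = 0.577), with -0.93 on slide 1 and -0.81 on slide 2, and -0.82 without control 2. Heyl, the other Hey target, was at 1.51 and 1.55 in Six2Cre knockouts, against 1.87 and 2.01 in Six2Cre controls. Its groups did not overlap, yet the difference was small (-0.41, 95% interval -1.05 to 0.23, limma adjusted p = 1.00), with -0.36 on slide 1, -0.46 on slide 2 and -0.34 without control 2. The dimmer Heyl probe gave -0.55.

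**Figure D2:**
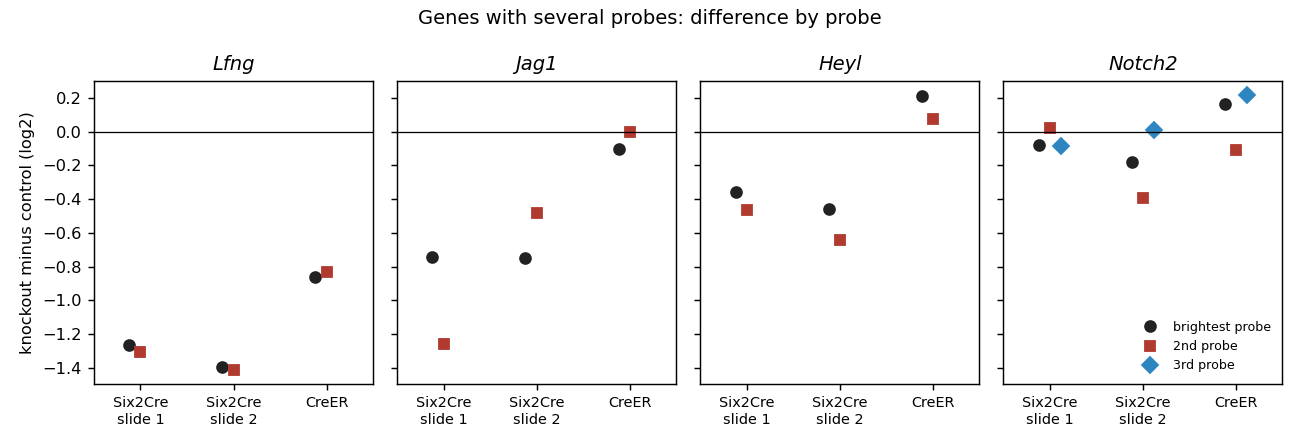
Knockout minus control difference (log2) of each of the 9 probes of the 4 genes with more than 1 probe, for slide 1, slide 2 and the CreER pair. The Lfng probes lie together at -1.33 and -1.36 in the mean of the Six2Cre pairs, and the Notch2 probes scatter around 0.

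In the Sall1CreER line the genes were less uniform. In the knockout array 6 were lower and 4 were higher than in the control array, with a median difference of -0.07 against -0.01 over all features. With 1 array a group there is no test within this line. The 6 lower genes were lower in all 3 pairs of the study, as were 14.4% of all features. Since all 10 were already lower in both Six2Cre pairs, this count follows from the CreER direction alone, and 14.4% is no like background. Of the 6380 features lower in both Six2Cre pairs, 3797 were lower in the CreER pair too. Hes5 was at -1.01 in the knockout and 0.12 in the control, 2.19-fold lower, and was the only one of the 10 to pass 2-fold (2.18% of all features passed 2-fold downward and 1.83% upward). Lfng was at -2.01 in the knockout and -1.15 in the control, 1.82-fold lower. Dll1 was at -1.09 in the knockout and -0.62 in the control, 1.39-fold lower. These 3 were also the genes with the largest differences in the Six2Cre line. Hes1 (-0.22), Jag1 (-0.10) and Rbpj (-0.03) were lower by less than the 0.33 between the 2 Six2Cre knockouts in Hes1, the 0.17 in Jag1 and the 0.71 in Rbpj. Hey1 (0.22), Heyl (0.21), Notch2 (0.16) and Notch1 (0.12) had higher values in the CreER knockout. The gap between the 2 Six2Cre knockouts was larger than this in Hey1 (0.23), Notch2 (0.86) and Notch1 (0.14), and smaller in Heyl (0.03).

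**Figure D3:**
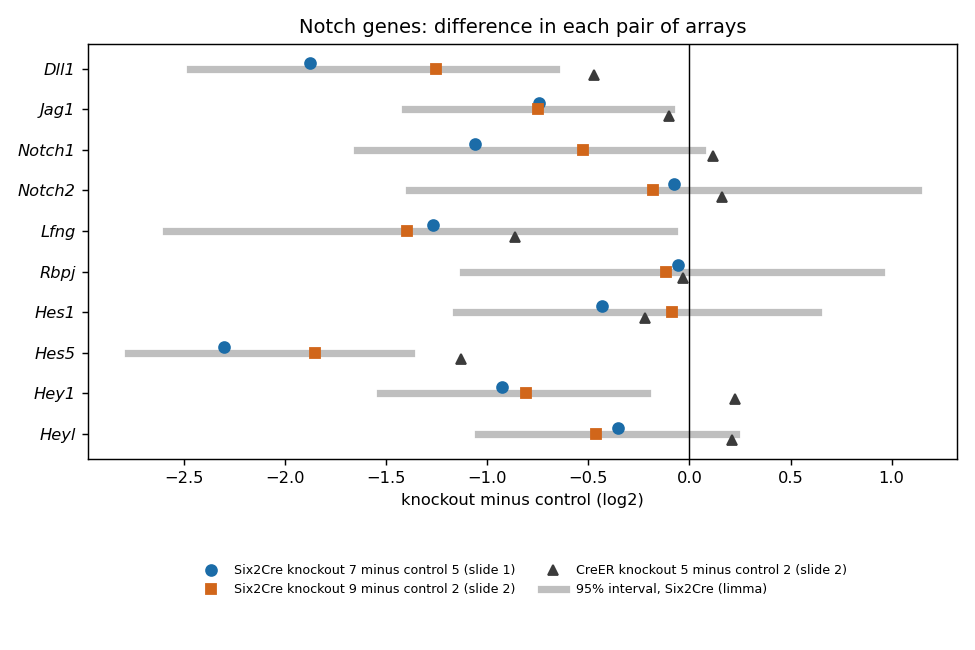
Knockout minus control difference (log2) of each gene in the slide 1 and slide 2 Six2Cre pairs and the CreER pair, with the 95% limma interval of the Six2Cre mean in grey. All 10 genes lie below 0 in both Six2Cre pairs and 6 of them lie below 0 in the CreER pair.

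Over both lines together, with line and slide as covariates, Hes5 was again lowest, at a difference of -1.76 (95% interval -2.47 to -1.05, limma adjusted p = 0.268). Dll1 followed at -1.20 (95% interval -2.02 to -0.38, limma adjusted p = 0.423) and Lfng at -1.18 (95% interval -1.60 to -0.75, limma adjusted p = 0.254). Jag1 was at -0.53 (95% interval -1.04 to -0.03, limma adjusted p = 0.495). The other 6 had differences of -0.51 (Hey1), -0.49 (Notch1), -0.25 (Hes1), -0.20 (Heyl), -0.07 (Rbpj) and -0.03 (Notch2), all with intervals that include 0. No gene passed an adjusted p of 0.05 (0 of 10, and 0% of all features), and 4 were lower at an unadjusted p under 0.05 (Hes5, Dll1, Lfng and Jag1) against 3.94% of all features. With the intensity-following prior 0 of 10 passed as well (0.0227% of all features were lower). This fit assumes the same genotype effect in both lines. It shares its 4 Six2Cre arrays with the comparison above and is no independent repeat of that comparison.

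The difference between the lines was tested as the CreER difference minus the Six2Cre difference. It was above 0 for 10 of 10 genes, against 46% of all features, with a median of 0.63 against -0.03 over all features. All 10 Six2Cre differences were below 0, so this sign largely follows from them, and 46% is no like background. Other lists lowered in Six2Cre knockouts had it too (14 of 16 nephron progenitor and 17 of 20 early nephron markers). Stroma, raised there, had it in 1 of 12. In the test 0 of 10 passed (limma adjusted p = 1.00 for each, and 0% of all features passed). An unadjusted p under 0.05 was met by 0 of 10, against 2.33% of all features. The difference between the lines was 1.10 for Hey1 (95% interval -0.05 to 2.24), 1.09 for Dll1 (-0.48 to 2.66) and 0.95 for Hes5 (-0.26 to 2.16). The intervals are wide and do not show that the lines respond alike. They take their spread from the Six2Cre arrays, and the lone CreER arrays are assumed to vary like them. The control arrays also differed between the lines. Hes5 was at 0.12 in the CreER control, against 1.32 and 1.22 in Six2Cre controls, and Dll1 was at -0.62 there, against 0.63 and -0.13. The CreER control lay below both Six2Cre controls for 6 of the 10 genes (Notch1, Jag1, Dll1, Hes5, Heyl and Rbpj), against 24.1% of all features, and above both for 0 of the 10 (33.1% of all features). A smaller CreER difference in Hes5 and Dll1 thus goes with a lower control level, and line and control genotype cannot be told apart here.

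The rest of the pathway did not share the direction of these 10. Of 50 other Notch pathway genes listed, 43 were measured, of which 18 were lower and 25 higher in Six2Cre knockouts, with a median difference of 0.03. None passed (0 of 43). At an unadjusted limma p under 0.05, 1 of the 43 was lower, against 2.68% of all features. It was the feedback inhibitor Nrarp, itself a Notch target. Nrarp was at -2.18 and -2.14 in Six2Cre knockouts, against -1.33 and -1.38 in Six2Cre controls. Replicates lay within 0.05 of each other and the groups were well apart (difference -0.81, SE 0.24, limma adjusted p = 0.587, with -0.31 in the CreER pair). Without control 2 the split was 14 lower of 43, and without control 5 it was 27 lower of 43. Each of these sets knockouts of both slides against a control of 1 slide, so control array and slide cannot be told apart. Within slides the median difference of the 43 was 0.10 on slide 1 and -0.06 on slide 2.

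Among the 7 other receptors and ligands measured, 4 were lower and 3 higher, with a median of -0.12. The largest difference was in Dlk1, a membrane protein related to the Notch ligands that lacks their receptor-binding domain. Dlk1 was at 3.16 and 3.93 in Six2Cre knockouts, against 1.77 and 2.99 in Six2Cre controls (difference 1.17, SE 0.53, limma adjusted p = 0.916, with 0.17 in the CreER pair). It was the only one of the 43 to pass with the slide block and the intensity-following prior (limma adjusted p = 0.0161). Of all features, 1.25% passed upward and 1.27% downward in that fit. Dll3, a ligand family member, had a difference of 0.60 (SE 0.36), Dner, an atypical ligand, of -0.38 (SE 0.28), and Dll4, the ligand of vessel tip cells, of -0.17. Notch3, the receptor of mural cells, had a difference of 0.03, and Notch4, the receptor of endothelium, of -0.17.

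The 9 enzymes of ligand and receptor modification had a median of 0.05 (3 lower, 6 higher), with Neurl1b, a ligand ubiquitin ligase, at 0.43 (SE 0.25) and Mib1, the main such ligase, at -0.31. The 5 gamma-secretase genes, whose products cut the receptor, had a median of 0.11 (1 lower, 4 higher). The 8 inhibitors and turnover genes had a median of -0.15 (6 lower, 2 higher), with Fbxw7, which marks the receptor fragment for breakdown, at -0.44 (SE 0.36). The 10 nuclear cofactors had a median of 0.11 (3 lower, 7 higher), with the coactivators Maml3 at -0.55 (SE 0.61) and Maml2 at 0.49 (SE 0.48). The 4 other Hes and Hey genes had a median of 0.02, and Hey2 was at 0.03. None of these groups had the median of -0.77 seen for the 10 genes above, a comparison of lists that was not tested.

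**Figure D4:**
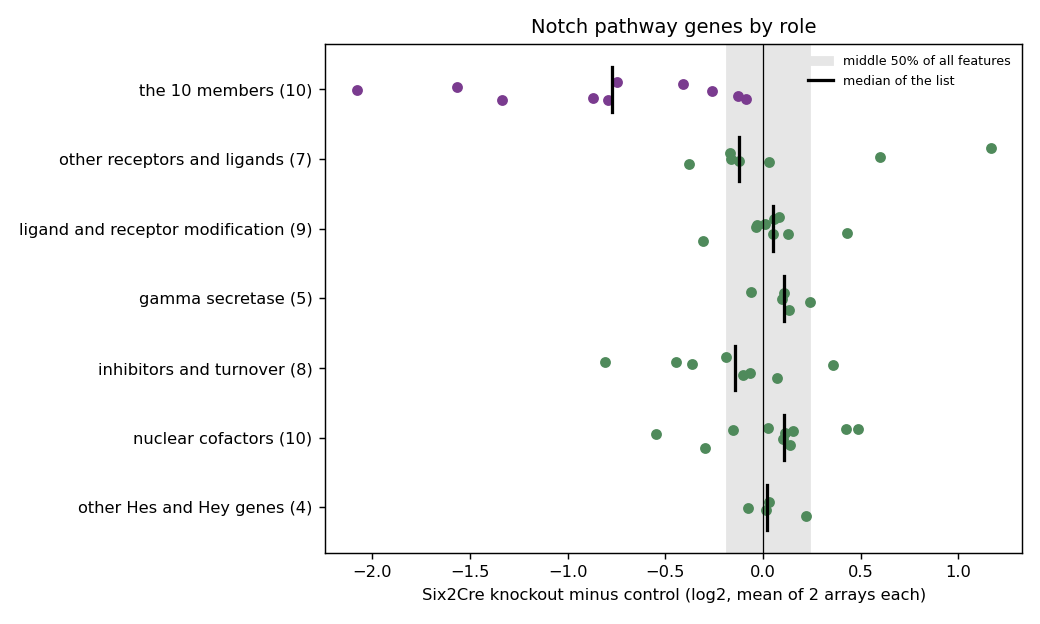
Six2Cre knockout minus control difference (log2) of the 10 genes and of 43 other Notch pathway genes, grouped by role, with the middle part of all features shaded. Dll1, Lfng and Hes5 lie lowest, while the groups of other pathway genes centre between -0.15 and 0.11.

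These kidneys are mixtures, and in such bulk samples fewer cells of a type and less RNA per cell cannot be told apart. Marker lists differed between the groups beside the Notch genes. The 16 nephron progenitor markers were all lower in Six2Cre knockouts, with a median difference of -1.18, and their summed signal (in units of each array's 75th percentile) was 21.7 and 21.5 in knockouts, against 52.0 and 58.8 in controls. Of them, Six2, a progenitor self-renewal factor, had a difference of -1.59 (SE 0.27, limma adjusted p = 0.226) and Cited1, a marker of the uninduced progenitor, of -4.16 (SE 0.39, limma adjusted p = 0.0969). Of 18 early nephron markers other than Jag1 and Dll1, 17 were lower, with a median of -0.95, led by the patterning factors Irx2 (-3.16, SE 0.36, limma adjusted p = 0.115) and Irx1 (-2.54, SE 0.30, limma adjusted p = 0.121). The summed signal of the early nephron list was 13.6 and 14.6 in knockouts, against 26.2 and 28.5 in controls. That of the 10 Notch genes was 13.8 and 15.2 in knockouts, against 23.4 and 24.1 in controls. The 3 sums were all lower on both knockout arrays, and the part of cell composition in the Notch differences was not tested.

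Markers of later nephron parts were mostly lower as well. Of 13 proximal tubule markers 11 were lower in Six2Cre knockouts (median -1.96). Their summed signal was 36.1 and 31.7 in knockouts, against 29.8 and 34.9 in controls, groups that overlap. That sum mostly follows Cdh16, by far the brightest of the 13, so it says little of the other markers. Cdh16 was at 5.05 and 4.83 in knockouts, against 4.43 and 4.70 in controls. Of 12 podocyte markers 10 were lower (median -0.57), with summed signals of 25.7 and 27.1 in knockouts, against 30.8 and 33.5 in controls. The 12 stroma markers were all higher in Six2Cre knockouts, with a median of 0.82 and summed signals of 283.7 and 260.7 in knockouts, against 180.6 and 162.4 in controls. Of 11 macrophage markers 10 were higher (median 0.64), with summed signals of 6.07 and 7.13 in knockouts, against 3.96 and 4.46 in controls. Endothelium, where Notch1, Jag1, Hey1 and Heyl are also known to be used, had 8 of 12 markers higher (median 0.07), with summed signals of 44.1 and 48.5 in knockouts, against 38.3 and 47.7 in controls. Smooth muscle and pericyte markers had sums of 23.8 and 29.8 in knockouts, against 23.8 and 33.8 in controls, groups that overlap. In the CreER pair the nephron progenitor sum was 41.6 in the knockout and 59.6 in the control, and the early nephron sum was 20.6 in the knockout and 22.7 in the control. The sum of the 10 Notch genes there was 20.9 in the knockout and 20.0 in the control, although 6 of the 10 were lower in the knockout. Hey1, the brightest of the 10, was at 3.13 in the CreER knockout and 2.91 in its control. The part of these cells in the results was not tested.

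**Figure D5:**
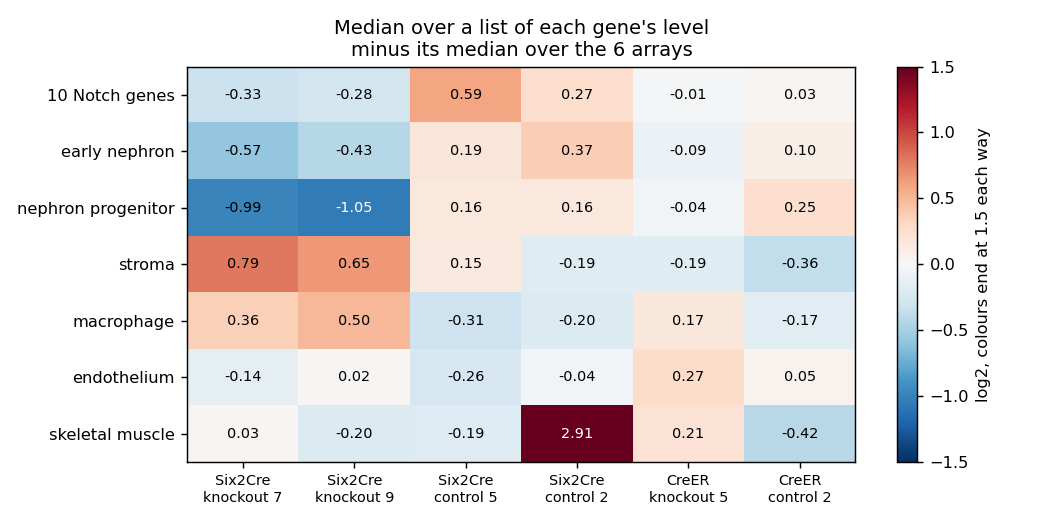
Median over the Notch genes and over each marker list of a gene's level minus its median over the 6 arrays (log2), for each array. The Notch genes are at -0.33 and -0.28 in Six2Cre knockouts 7 and 9, against 0.59 and 0.27 in Six2Cre controls 5 and 2. They are at -0.01 in the CreER knockout and 0.03 in its control. The nephron progenitor list is at -0.99 and -1.05 in Six2Cre knockouts, against 0.16 in each Six2Cre control. Skeletal muscle is at 2.91 on Six2Cre control 2 and at most 0.21 on any other array.

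Over the 6 arrays some of the 10 genes ran together. Pearson's r was 0.98 between Jag1 and Dll1, 0.93 between Dll1 and Hes5 and 0.92 between Jag1 and Hes5, whereas Notch2 and Rbpj ran oppositely (-0.96). These values describe arrays that share slides, lines and genotype. Of 13767 named genes well above background on every array, the nearest to Hes5 were Stk32a (r = 0.986), Megf9 (0.981) and Zadh2 (0.965), with 52 genes at 0.9 or above. Stk32a was at -4.93 and -4.54 in Six2Cre knockouts, against -2.92 and -2.80 in Six2Cre controls, and at -4.56 in the CreER knockout against -3.74 in its control. The nearest to Dll1 were Prkaa2 (0.993), a subunit of AMP-activated kinase, Adcy1 (0.993), an adenylate cyclase, and Pus7 (0.980), with 89 genes at 0.9 or above. The nearest to Lfng were Des (0.992), the muscle filament protein desmin, Osbpl3 (0.992) and the potassium channel Kcnh2 (0.990), with 344 genes at 0.9 or above. Des was also in the skeletal muscle list, and was at 0.66 on Six2Cre control 2 and 0.55 on the CreER control, its highest arrays. Lfng was highest on the same arrays, at -1.09 and -1.15. The skeletal muscle list as a whole was not high on both. Its summed signal was 40 on Six2Cre control 2 but 4.935 on the CreER control, where its median against the gene medians was the lowest of the arrays (-0.42). The part of muscle tissue in the Lfng levels was not tested.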

How the data were processed

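Levels were computed from 6 one-colour arrays. Per the file headers, the deposited processed values are linear intensity, extracted with Feature Extraction 10.5.1.1, background-subtracted and not normalized between arrays. The deposited files also give flags of 0 or 1 for spots that are outliers, saturated or well above background. The deposited series table held the same intensity: all single-spot values (100%) lay within a relative 0.001 of the processed signal, with column medians of 235.24 (Six2Cre control 5), 217.72 (knockout 7), 202.6 (control 2), 216.94 (knockout 9), 218.29 (CreER control 2) and 187.02 (CreER knockout 5). It is linear and uncentred.

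Control spots and outlier-flagged spots were left out, each array was divided by its 75th percentile, and log2 was taken. Spots of a probe were averaged, 40987 of 41174 probes were used, and 25097 were named through their unversioned RefSeq accession (GRCm38.p6). A gene was taken as its brightest probe over all arrays. Features well above background on at least 2 arrays were tested: 15234 named genes and 11159 unnamed transcripts. No spot was saturated.

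The main test was limma 3.58.1 (R 4.3.3; lmFit and eBayes, two-sided, Benjamini-Hochberg over 26393 features) on 4 groups, which leaves 2 residual degrees of freedom. Genotype over both lines was fitted with line and slide as covariates. Alternatives changed the slide block, prior, background correction, normalization, filter and probe rule, or left out an array. The script was tested on simulated data.

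The genes, lists and tests were chosen with earlier results of these data known. All 10 genes are named. From the other pathway lists, genes past a threshold or up to 4 with the largest Six2Cre difference of the same sign in both slide pairs are given. The 3 most alike genes for each of the 3 genes with the largest differences, and Sall1, Six2 and Cited1, are also given. Few genes of the marker lists are named. With the slide block and the intensity-following prior, 7 early nephron markers other than Jag1 and Dll1, 11 nephron progenitor and 9 proximal tubule markers passed downward. In that fit 6 stroma markers passed upward, and most of these markers are not named. Cdh16 is named for its part in a sum. Notch3, Notch4 and Hey2 are named for their family, chosen after their values were seen. The number of arrays limits the precision.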

Additional observations from a re-analysis of the deposited data

Results flagged for a closer look

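A group of 4 genes had differences of opposite sign in the 2 lines, with a higher CreER knockout value and lower knockout values in both Six2Cre pairs. The CreER side rests on 1 knockout and 1 control array. Its rise was smaller than the gap between the 2 Six2Cre knockouts in Hey1, Notch1 and Notch2, and larger only in Heyl. The CreER difference minus the Six2Cre difference was 1.10 for Hey1 (SE 0.44; pairs 0.22 in CreER, -0.93 on slide 1 and -0.81 on slide 2). It was 0.91 for Notch1 (SE 0.57; pairs 0.12 in CreER, -1.06 on slide 1 and -0.53 on slide 2). For Heyl it was 0.62 (SE 0.42; pairs 0.21 in CreER, -0.36 on slide 1 and -0.46 on slide 2), and for Notch2 it was 0.29 (SE 0.83; pairs 0.16 in CreER, -0.08 on slide 1 and -0.18 on slide 2). The opposite directions of Notch2 hold for its brightest probe only: 1 dimmer probe was at -0.11 in CreER, 0.02 on slide 1 and -0.40 on slide 2, and the other at 0.22 in CreER, -0.08 on slide 1 and 0.01 on slide 2. None passed limma's test of the difference (adjusted p = 1.00 for each; unadjusted 0.0573 for Hey1, 0.171 for Notch1, 0.206 for Heyl and 0.743 for Notch2). The CreER knockout array also had the fewest probes well above background (71.6%), whose part was not tested.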

How the results depend on the processing

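Of the 10 Six2Cre differences, 5 passed an adjusted p of 0.05 with slide as a block and a trended, robust prior (666 features in all), and 3 (Dll1, Lfng and Hes5) with normexp on the median signal and the block (354 features), an alternative chosen after seeing the data, against 0 (0 features) in the main test. The block leaves 1 residual degree of freedom. Under the remaining alternatives 0 passed. Over both lines, features passing numbered 47 with normexp and 12 with the trended prior, and 9 for the difference between lines with the block and trended prior, against 0 in each main test; no member was among them. Leaving out each array in turn, 0 members passed in any comparison, the Six2Cre median ran between -0.82 and -0.64, and 8 to 9 members were lower; a lone array was assumed to vary like the other groups. Leaving out 1 array turned the direction of Hes1 (-0.60 to 0.079; control 5 left out), Rbpj (-0.44 to 0.27; control 5 or knockout 9), Notch2 (-0.61 to 0.35; control 2 or knockout 7) and Notch2 over both lines (-0.13 to 0.042; control 2 or knockout 9). In the Six2Cre comparison this leaves the slides unbalanced, so array and slide cannot be told apart. Within slides 1 and 2 the differences were -0.43 and -0.09 for Hes1, -0.06 and -0.12 for Rbpj, and -0.08 and -0.18 for Notch2. Notch2 over both lines also turned without the slide term (0.017). Apart from these, each member kept its direction under every alternative run. Planned normexp on the mean signal was not run, since the files give spot brightness as a median. Knockouts and controls of the same line share no replicate number, so they could not be paired by replicate. Each slide held 1 Six2Cre knockout and 1 Six2Cre control, so the slide block pairs them by slide, which the main test does not.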
